A study of Mus musculus with 2 samples.

Results

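The values describe 10 genes of the Wnt and beta-catenin pathway in mouse embryonic stem cells: Fzd7, Lrp6, Axin1, Axin2, Apc, Gsk3b, Ctnnb1, Tcf7l1, Tcf7l2 and Lef1. They were chosen by symbol, and every transcript of these symbols that GENCODE M21 calls protein coding was taken, which gave 43 coding transcripts out of 49490 in the table, or 10 genes out of 21587. The cells were WT DTCM23/49 XY embryonic stem cells, depleted of feeder cells and grown on gelatin in medium with serum and leukemia inhibitory factor; the listed medium names no inhibitor of GSK3. All were exposed for 10 min to 200 µM 4-thiouridine (4sU), which takes the place of uridine in RNA made during that time, and RNA carrying 4sU was then pulled down on beads. The labeled RNA from the beads and the unlabeled RNA left behind were sequenced as 1 library each, both of biological replicate 1. One label names the unlabeled pool total RNA and another names it preexisting RNA, and it is read here as unlabeled. There is no replicate, so no difference below has an error or a test, and every value describes these 2 libraries. The table gives relative abundances normalized for length, separately over exons and over introns of a transcript, which the authors call TPM but which sum to 10 times a TPM total; read depth is unknown, so no counting error can be given.

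In the canonical pathway, Wnt proteins bind a Frizzled receptor together with the coreceptor Lrp5 or Lrp6. Without a ligand, the destruction complex, built on Axin and Apc, lets Gsk3 phosphorylate beta-catenin (Ctnnb1), which is then degraded. When the receptors are engaged, beta-catenin persists and acts in the nucleus with the TCF and LEF factors; in embryonic stem cells Tcf7l1 is known as a repressor of pluripotency genes, and inhibition of Gsk3 is widely used to maintain the naive state. Abundance of the mRNAs says nothing of this control of the protein.

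The labelled cell type was checked on marker genes. All 8 markers of pluripotent stem cells were in the table, and their unlabeled exon values ranged from 72.9 to 3452.75, with a median of 300.1 and 7 of 8 above 100. Of 5 markers of feeder fibroblasts, 4 had unlabeled values under 10 and the highest, Thy1, had 14.45. The 4 endoderm markers reached 2.49, the 3 mesoderm markers 3.42 and the 2 neural ectoderm markers 10.11. Intron rows summed to 15.4% of all labeled values and 6.26% of all unlabeled values.

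Several members are annotated with coding transcripts that differ by a short internal exon, and these exons are shown because the transcripts that hold or lack them are compared below. The exon is in capitals, with 15 bases of each neighbouring exon in lower case, read from the spliced GENCODE M21 transcript (GRCm38). Lef1 exon 6 (chr3:131191023-131191106, plus strand, 84 bases, coding) is in Lef1-201 and Lef1-203 and absent from Lef1-202 and Lef1-204. Gsk3b exon 9 (chr16:38217113-38217151, plus strand, 39 bases, coding) is in Gsk3b-202 and absent from Gsk3b-201. Tcf7l1 exon 5 (chr6:72648801-72648842, minus strand, 42 bases, coding) is in Tcf7l1-202 and absent from Tcf7l1-201.
Lef1 exon 6: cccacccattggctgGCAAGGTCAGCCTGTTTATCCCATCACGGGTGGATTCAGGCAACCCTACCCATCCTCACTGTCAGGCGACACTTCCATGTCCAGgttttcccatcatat
Gsk3b exon 9: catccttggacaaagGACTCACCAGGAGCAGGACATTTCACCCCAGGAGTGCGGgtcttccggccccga
Tcf7l1 exon 5: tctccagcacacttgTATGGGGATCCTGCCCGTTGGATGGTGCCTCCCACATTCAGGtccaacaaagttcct
The inserted lengths of 84, 39 and 42 bases are each a multiple of 3. Lef1-201 and Lef1-202 differ in no other exon, while the Gsk3b and the Tcf7l1 pairs also differ at their first and last exons.

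Tcf7l2 has annotated starts far apart, and coding transcripts that begin near the 5′ end and far inside the gene are in the table. The RefSeq promoter windows of the first start and of an internal start (GRCm38.p6, plus strand, 250 bases before to 50 after the start) are shown with every CG dinucleotide in capitals. The first lies at chr19:55741560-55741859 and the second, inside the gene, at chr19:55895071-55895370.
Tcf7l2 first start: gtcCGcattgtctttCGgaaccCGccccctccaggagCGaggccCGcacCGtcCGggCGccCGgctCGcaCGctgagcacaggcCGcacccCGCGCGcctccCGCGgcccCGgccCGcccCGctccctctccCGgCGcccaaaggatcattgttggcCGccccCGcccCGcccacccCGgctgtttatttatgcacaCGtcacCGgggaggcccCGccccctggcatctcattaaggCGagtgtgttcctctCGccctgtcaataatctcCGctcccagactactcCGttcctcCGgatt
Tcf7l2 internal start: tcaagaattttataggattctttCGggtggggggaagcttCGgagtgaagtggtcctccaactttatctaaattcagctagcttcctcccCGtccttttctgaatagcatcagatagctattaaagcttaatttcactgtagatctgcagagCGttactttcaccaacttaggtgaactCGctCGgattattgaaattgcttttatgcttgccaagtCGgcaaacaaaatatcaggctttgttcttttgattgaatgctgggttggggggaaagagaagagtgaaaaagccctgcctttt
The window of the first start holds 34 CG dinucleotides and that of the internal start holds 7, which is also the median of all 32851 RefSeq windows of this length. The 6 letters CTTTGA, the core of the TCF and LEF motif, were searched on both strands and found in 16.0% of all windows. They occurred in 2 of the 12 windows that matched 7 of the 10 members, 1 of Gsk3b and 1 internal window of Lef1, and in neither Tcf7l2 window. A match is a description of letters and not a binding site.

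For each gene the coding transcript with the highest mean exon value over the libraries, called the lead transcript below, stands for the gene. All values are in the deposited unit. Each lead transcript is set beside those of the 13697 coding genes with a mean exon value above 1 and both exon values above 0, of which 10 are these genes. In that background the labeled exon value was 0.809 times the unlabeled value at the median. Folds relative to the median are log2 ratios from which this median was subtracted. The members' labeled exon values were all below their unlabeled values, which was so in 60.0% of coding genes. Relative to the median, 7 of the 10 were more than 2-fold lower in labeled RNA, beside 15.4% of all coding genes, and 0 were more than 2-fold higher, beside 22.1%. The members just on either side of that threshold were Lef1, 2.03-fold below the median, and Ctnnb1, 1.61-fold below. With genes limited to a mean exon value above 10, Axin2 left the set and the median ratio of the set was 0.718; 4 of 9 members, Fzd7, Lrp6, Tcf7l1 and Tcf7l2, were then more than 2-fold lower, beside 11.1% of that set. As deposited, without the median subtracted, 7 of the 10 were again more than 2-fold lower, beside 25.0%. Among lead transcripts with an unspliced length over 20 kb, 20.0% were more than 2-fold below the median of all coding genes.

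**Figure D1:**
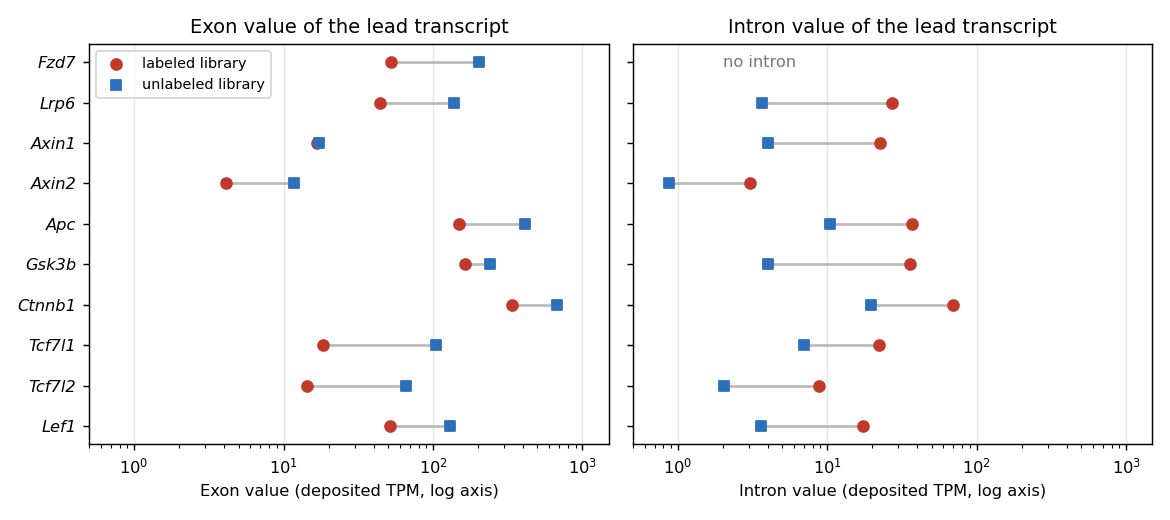
Exon values (left) and intron values (right), in deposited TPM on log axes, of the lead transcript of each of the 10 genes in the labeled and the unlabeled library, 1 library each. Every labeled exon value lies left of its unlabeled value, every labeled intron value lies right of it, and Fzd7 has no intron.

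The receptors come first in the pathway. Fzd7-201, the single-exon transcript of a Frizzled receptor (chr1:59482424-59486955), had an exon value of 52.6 in the labeled and 202 in the unlabeled library. The labeled value was 0.260 times the unlabeled one, or -1.64 on the log2 scale relative to the median, and only 4.44% of coding genes had a lower ratio. Lrp6-201, the full-length transcript of the coreceptor (chr6:134446476-134566913, 23 exons), had 44.1 labeled and 138 unlabeled, a fold of 0.318 and a log2 value of -1.35 relative to the median. Its introns had 27.3 labeled and 3.66 unlabeled, 7.45 times more in the labeled library. Fzd7, with no intron, has no such value.

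Axin1 and Axin2 encode the scaffold of the destruction complex, and Axin2 is also known as a target gene of the pathway. Axin1 was the member with the most nearly equal exon values, 16.7 labeled and 17.4 unlabeled, a fold of 0.961 and a log2 value of 0.25 relative to the median. Its lead transcript, Axin1-204 (chr17:26143347-26184314), is an annotated fragment of 465 exon bases. The longest annotated coding transcript, Axin1-201, had 11.15 labeled and 13.0 unlabeled, a fold of 0.858 and 0.08 relative to the median. In Axin1-202 and Axin1-203 the labeled value was 0.635 times the unlabeled one, or -0.35 relative to the median. The place of Axin1 above or below the median thus depends on the transcript chosen. Axin2-202 (chr11:108923181-108949511, 9 exons) had the lowest exon values of the members' lead transcripts, 4.15 labeled and 11.8 unlabeled. Its fold was 0.352, which was not the lowest fold. Axin2-201, which begins upstream, had 4.81 labeled and 10.05 unlabeled. Short 2-exon coding transcripts at the 5′ end of Axin2 had the opposite order: Axin2-207 had 5.58 labeled and 1.17 unlabeled, and Axin2-204 had 1.48 and 0.79, with introns listed at 0 in both libraries.

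Apc, which binds beta-catenin in the complex, was among the higher members. Apc-202 (chr18:34220984-34322552, 16 exons) had 149 labeled and 413 unlabeled, a fold of 0.360 and a log2 value of -1.17 relative to the median. Gsk3b, the kinase, stood closer to other genes. Gsk3b-202 (chr16:38090288-38240779, 12 exons), which holds the 39-base exon, had 165 labeled and 241 unlabeled, a fold of 0.683 and -0.24 relative to the median. Gsk3b-201, which lacks that exon but has a far longer last exon, had 62.8 and 128. Introns of Gsk3b-202 had 36.1 labeled and 4.03 unlabeled, 8.95 times more in the labeled library, the highest fold of the 9 members with introns and higher than in 92.5% of coding genes. Introns of Apc-202 had 36.9 labeled and 10.4 unlabeled, a fold of 3.54.

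Ctnnb1, the gene of beta-catenin, had the highest levels. Ctnnb1-214 (chr9:120933572-120959780, 15 exons) had 338 labeled and 672 unlabeled, a fold of 0.503 and -0.69 on the log2 scale relative to the median. Its mean exon value was higher than that of 96.1% of coding genes. Ctnnb1-201, the other full-length transcript, had 316 and 636; the pair shares all exons but parts of the first and the last, so these rows are not independent measurements.

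The TCF and LEF genes encode the DNA-binding partners of beta-catenin, and Tcf7l1 and Tcf7l2 had the lowest labeled to unlabeled exon ratios of the 10 members. Tcf7l1-202 (chr6:72627272-72788952, minus strand, 13 exons) had 18.5 labeled and 105 unlabeled, a fold of 0.177, 4.58-fold below the median ratio, and 1.54% of coding genes had a lower ratio. Tcf7l1-201, without the 42-base exon and with a longer last exon, had 19.1 and 70.6. Tcf7l2-212 (chr19:55742058-55932209, 12 exons) had 14.4 labeled and 65.8 unlabeled, a fold of 0.218, with 2.61% of coding genes lower. Lef1-202 (chr3:131110471-131224356, 11 exons) had 51.95 and 131, a fold of 0.398, and -1.02 relative to the median. Lef1-201, which differs from it only by the 84-base exon, had 48.2 and 119, close to these values. Lef1-204, also without the exon, had 46.5 and 116, and Lef1-203, which holds the exon but has another first exon, was lower at 35.3 and 77.8. How reads shared by overlapping transcripts were assigned is not given in the sources used here.

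**Figure D2:**
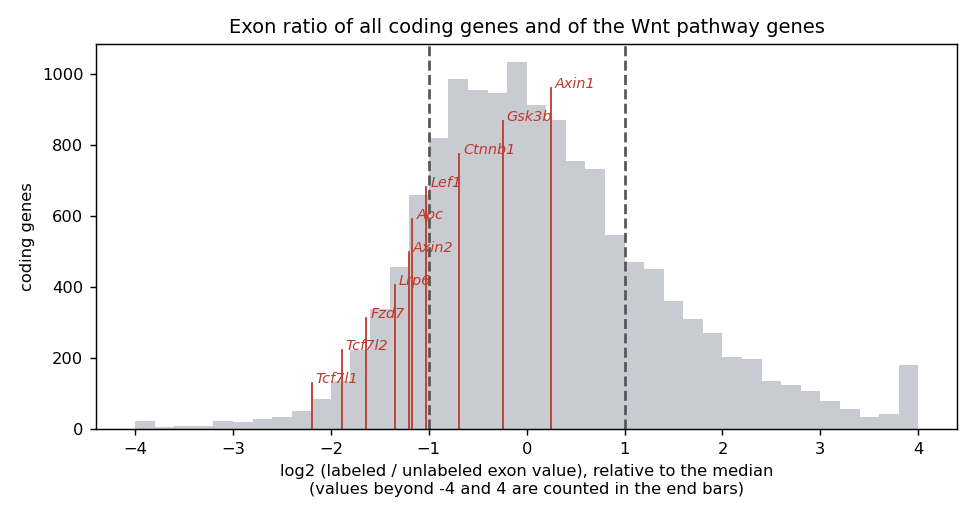
Histogram of the log2 ratio of labeled to unlabeled exon value, relative to the median, over the lead transcripts of 13697 coding genes, with the 10 members marked by lines whose height has no meaning and dashed lines at a 2-fold difference. Values beyond -4 and 4 are counted in the end bars; 9 members lie below the median, and Axin1 lies 0.25 above it.

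Introns were more abundant in labeled RNA throughout. The labeled intron value was more than 2-fold above the unlabeled one in 9 of 9 members with introns, beside 89.4% of 12420 coding genes, so this count does not set the members apart. The folds ran from 3.19 in Tcf7l1 to 8.95 in Gsk3b, and 5 of 9 were above the background median of 4.03. Next to Gsk3b stood Lrp6 at 7.45, then Axin1 at 5.57, Lef1 at 4.84 and Tcf7l2 at 4.32, and below the median Ctnnb1 at 3.56, Apc at 3.54 and Axin2 at 3.49. With no replicate the order of neighbours cannot be called.

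The ratio of intron to exon value was then taken for each transcript in each library. In labeled RNA the median over the 9 members was 0.610, beside 0.471 over 12420 coding genes, and 4 of 9 were below that background median. In unlabeled RNA the members' median was 0.0291, beside 0.0918, and 8 of 9 were below it, all but Axin1 at 0.233. The lowest unlabeled ratio was that of Gsk3b, 0.0167, and the lowest labeled ratio that of Ctnnb1, 0.206. Highest in labeled RNA were Axin1 at 1.35 and Tcf7l1 at 1.20. The members are long genes: their median unspliced length was 107728 bases, beside 17991 for all coding genes. The part of length in these ratios was not tested.

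**Figure D3:**
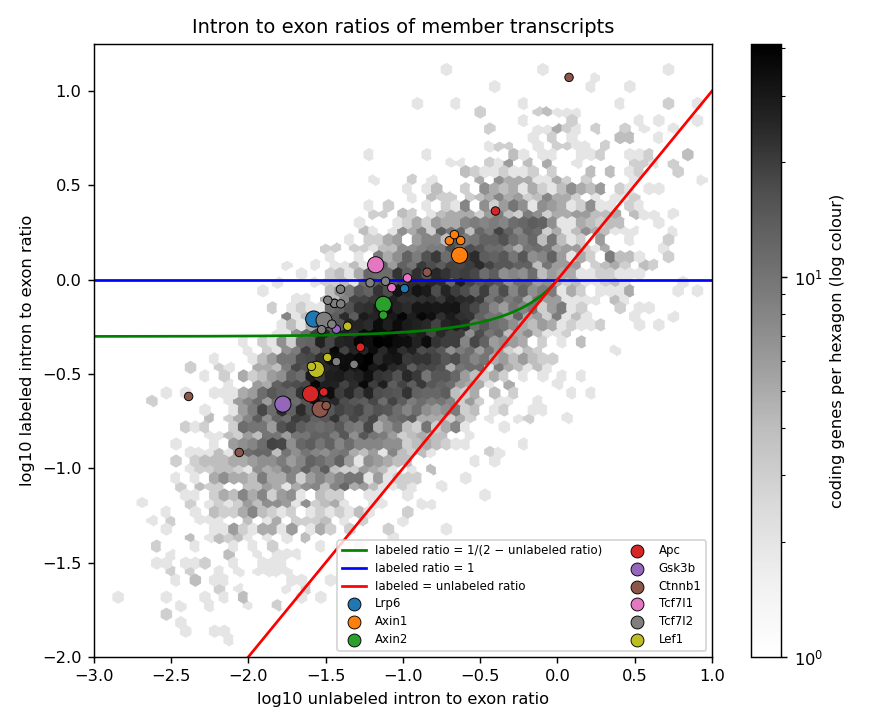
Labeled against unlabeled intron to exon ratio of the 39 member transcripts with all values above 0, as log10 values coloured by gene, with lead transcripts as large points, over hexagons that count coding genes. The lines mark equal ratios, a labeled ratio of 1 and the curve above which the model has 1 exact solution. All 39 lie above the line of equality, and 9 have a labeled ratio of 1 or more.

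A labeled ratio of 1 or more cannot be reached in the kinetic model of the study, in which an intron-containing precursor is made, processed and then degraded as mature RNA. Of the 43 coding transcripts, 42 passed the minimum exon value, Axin2-206 being the exception, and 39 had all 4 values above 0; Fzd7 has no intron, and 2 short Axin2 transcripts had introns at 0. Of these 39, 9 had a labeled ratio of 1 or more, or 23.1%, beside 28.2% of all coding transcripts, a share near the background. They were all 4 Axin1 transcripts, Tcf7l1-201, Tcf7l1-202, Ctnnb1-203, Ctnnb1-207 and Apc-201. No member transcript had a labeled ratio at or below its unlabeled one, so 30 could be given rates. Counting a labeled ratio at or below the unlabeled one as incompatible too, the background shares are 33.3% of coding transcripts and 28.4% of coding genes. Among lead transcripts 2 of 9 had a labeled ratio of 1 or more, beside 22.4% of coding genes. As possible carry-over, 14.4% of each unlabeled value was subtracted from the labeled one, a fraction set from percentile 1 of these same data. Then 24 of 39 member transcripts, or 61.5%, had a labeled ratio of 1 or more, beside 35.6% of 31046 coding transcripts. All 24 counted as incompatible, beside 40.8%. The subtraction removes a larger share of the labeled exon value where the labeled to unlabeled exon ratio is low. Tcf7l2, with 12 of the 39 transcripts, had exon folds of 0.177 to 0.274. The count is therefore not separate from the low exon ratios above. Transcripts of 1 gene share exons and introns, so these counts are not of independent items.

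Transcripts of 1 gene differed by where in the gene they lie. In Ctnnb1, the introns of the 5′ transcripts Ctnnb1-203 and Ctnnb1-207 had labeled values of 80.9 and 84.5 and unlabeled values of 20.5 and 25.9. The introns of Ctnnb1-212 and Ctnnb1-205, short transcripts near the 3′ end, had 5.04 and 4.19 labeled and 0.36 and 0.26 unlabeled. Ctnnb1-207 thus had 16.8 times the labeled and 72.0 times the unlabeled intron value of Ctnnb1-212. The exon values of Ctnnb1-203 were low, 6.84 labeled and 17.2 unlabeled, and its labeled ratio was 11.8. The labeled to unlabeled intron fold was 3.26 in Ctnnb1-207 and 16.1 in Ctnnb1-205, and it rests on unlabeled values under 1 in the latter.

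In Tcf7l2, 9 coding transcripts begin within 5 kb of the first start, whose window is the CG-rich sequence above, and 3 begin more than 150 kb downstream. Of the latter, Tcf7l2-203 begins at position 55895510, a short way past the internal window, Tcf7l2-218 at 55894534, upstream of it, and Tcf7l2-221 at 55898553, farther downstream, so that window does not stand for the starts of all 3. Introns of the 9 had labeled values of 6.64 to 9.72 and unlabeled values of 1.33 to 2.03. Introns of the 3 downstream transcripts had 3.24 to 7.59 labeled and 1.81 to 2.67 unlabeled. The intron folds were 4.25 to 5.17 in the first set and 1.75 to 2.84 in the second. Over 12420 coding genes the quartiles of this fold were 2.85 and 5.52, and 5% of genes lay below 1.41. How often such sets differ in other genes was not computed, and rows of 1 gene are not independent. The exon folds were 0.199 to 0.274 and 0.177 to 0.243. The downstream transcripts lie within the span of the longer ones and share introns with them. In Apc, the shorter Apc-201 had introns like those of Apc-202, 34.6 labeled and 9.61 unlabeled, with a labeled exon value of 14.96, which gave a labeled ratio of 2.31.

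**Figure D4:**
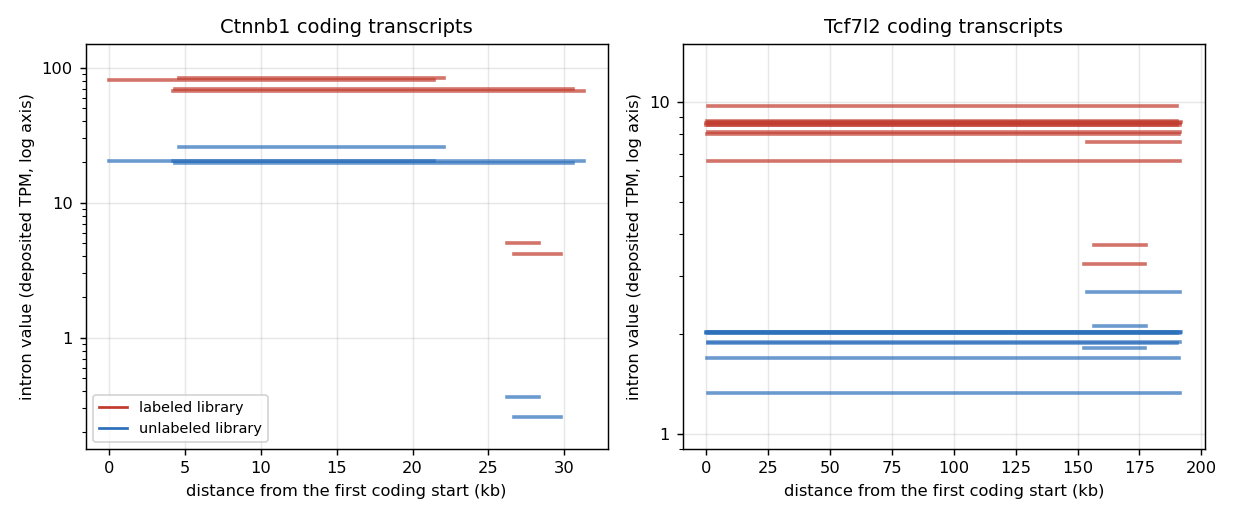
Intron values (deposited TPM, log axis) of the coding transcripts of Ctnnb1 (left) and Tcf7l2 (right), each drawn as a bar over the span of the transcript, by distance in kb from the first coding start, in the labeled and the unlabeled library. Ctnnb1 transcripts near the 3′ end have labeled values of 5.04 and 4.19, below the others, and the 3 Tcf7l2 transcripts that start downstream have labeled values of 3.24 to 7.59.

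Degradation half-lives and processing half-times, the times in which mature RNA and precursor would decay by a factor of 2, were computed for the 7 lead transcripts with a labeled ratio under 1. Only 3 solved the equations exactly, Lrp6, Axin2 and Tcf7l2, with degradation half-lives of 82.7, 69.6 and 65.6 min and processing half-times of 6.42, 10.6 and 6.17 min. The other 4 had no exact solution, as had 62.9% of such coding genes, and were given the closest rates on the study's rule. These were 20.6 min for Ctnnb1, 17.04 for Gsk3b, 15.4 for Apc and 7.94 for Lef1 for degradation, and 3.02, 2.47, 2.69 and 2.25 min for processing. The median degradation half-life was 20.6 min over the 7, beside 19.6 min over 8887 coding genes, and the median processing half-time was 3.02 min, beside 3.72. For the 4 without a solution the minimum over both variables of the function gave 3.89 to 4.61 min instead. Half-lives also depended on the transcript chosen. Over the coding transcripts of Tcf7l2 they ran from 6.09 to 2029 min, and in Lrp6 from 82.7 to 217 min. In Lef1 they ran from 3.94 to 31.6 min, and in Axin2 from 34.0 to 69.6 min. Summing the coding transcripts of Axin2 gave 9.45 min, and the value of Axin2-202 rests on an unlabeled intron value of 0.88. If the second library is read as total RNA, the 7 values ran from 45.5 to 240.2 min, with a median of 87.8. No order of stability between members is therefore drawn.

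**Figure D5:**
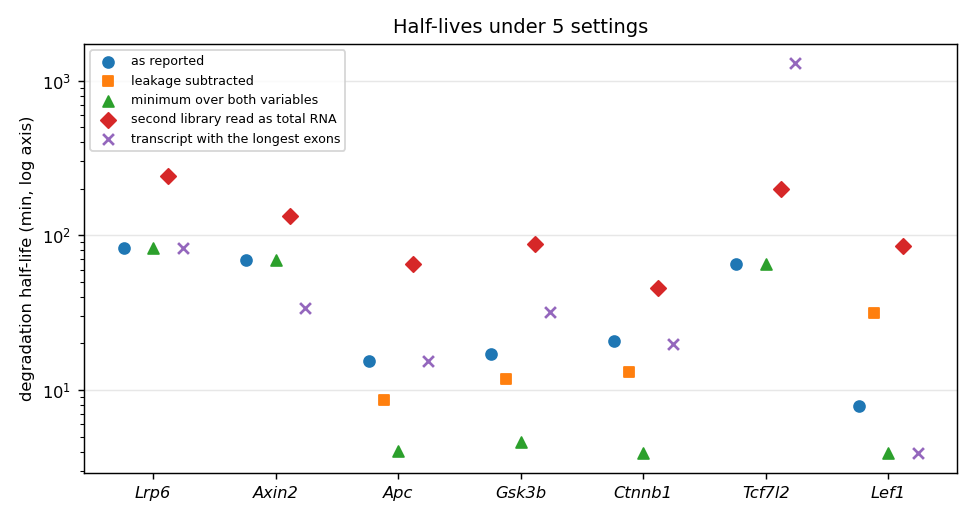
Degradation half-life in min (log axis) of the 7 member genes whose lead transcript has rates, under some of the settings computed. Drawn are the reported setting, carry-over subtracted, the minimum over both variables, the second library read as total RNA, and the transcript with the longest exons. The sum over coding transcripts and other settings are not drawn. With carry-over subtracted, Lrp6, Axin2 and Tcf7l2 have no value. For Lrp6, Axin2 and Tcf7l2 the main value is an exact solution, and for Ctnnb1, Gsk3b, Apc and Lef1 it is the closest rate; all settings for Ctnnb1 lie between 3.92 and 45.5 min.

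The sequence of the lead transcripts differed in its share of uridine, which together with length sets how many positions 4sU can take. The U share of the exons was 16.99% in Axin1, 17.5% in Tcf7l1 and 17.8% in Axin2, at percentiles 1.87, 2.60 and 3.22 of coding genes, and 22.7% to 27.6% in the others, beside a median of 24.1%. Of these 3, Axin1 had a labeled to unlabeled ratio near 1 and Tcf7l1 the lowest of the members; the part of U content in the ratios was not tested. The letters ATTTA, the core of AU-rich elements, occurred in the 3′ UTR of 6 of 10 lead transcripts, beside 55.1% of coding genes, up to 9 times in Lrp6. Annotated 3′ UTRs ran from 0 bases in the Axin1 fragment to 4310 in Lrp6. They were also short in the lead transcripts of Ctnnb1, Gsk3b and Tcf7l1, at 263, 210 and 88 bases. Other coding transcripts of these 3 genes have longer last exons, which were not searched, so the counts describe the lead transcripts only.

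The other genes of the pathway were taken from a list of 90 by role. Of these, 60, or 66.7%, were detected, beside 63.5% of all coding genes in the table. Detected means a lead transcript above the minimum with both exon values above 0. Among the 60 detected, 21, or 35%, were more than 2-fold lower in labeled exon value relative to the median, beside 15.4% of coding genes. Another 8, or 13.3%, were more than 2-fold higher, beside 22.1%, and the median fold was 0.513, beside 0.809. The counts by role below are of few genes and stand beside the same shares, 15.4% lower and 22.1% higher. Only 37 of the 60 had a mean exon value above 10, and their share at that stricter minimum was not computed. Of the 8 higher genes, only Klf2 was above 10. Of the 21 lower ones, Wnt5a, Sfrp5, Fzd4, Fzd6, Ror1, Ror2 and Ctnnbip1 were not above it. A labeled intron to exon ratio of 1 or more occurred in 11 of 52, or 21.2%, close to the 22.4% of coding genes.

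Of 19 ligands 5 were detected, or 26.3%, beside the 63.5% of coding genes, and 0 had a mean exon value above 10, beside 43.3%. Wnt10a, with 3.72 labeled and 0 unlabeled, did not count as detected. Relative to the median, 2 of the 5 were more than 2-fold higher in labeled RNA, 1 was lower and 2 lay between. The highest, Wnt2b, had 10.4 labeled and 8.31 unlabeled, Wnt4 had 3.73 and 1.82, and Wnt5a had 1.12 and 2.90; Wnt4 was among the higher ones and Wnt5a was the lower one. Porcn, the acyltransferase that Wnt proteins need for secretion, had 53.2 and 41.4, and Wls, their carrier, had 3.07 and 3.40. Of 11 secreted inhibitors 6 were detected and 2 were lower, with Sfrp1 highest at 101 labeled and 196 unlabeled, Sfrp4 at 18.25 and 25.8, and Sfrp2 lower at 13.4 and 52.1.

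Among 13 receptors and coreceptors 12 were detected and 5 were more than 2-fold lower, beside 15.4% of coding genes. These 5 were Lrp5, with 7.79 labeled and 31.7 unlabeled, and Fzd6, Ror1, Ror2 and Fzd4, with mean exon values of 2.76 to 8.13. Fzd5 had 69.7 labeled and 152 unlabeled, Ryk, a kinase-like Wnt receptor, had 27.1 and 65.3, and Fzd3 had 19.97 and 29.9. None of these 3 was more than 2-fold lower relative to the median, though Fzd5 and Ryk were so in the values as deposited. Of the R-spondins and the genes of receptor turnover, 3 of 9 were detected: Lgr4, an R-spondin receptor, had 54.3 and 197, more than 2-fold lower, Znrf3, a ligase that removes Frizzled from the surface, had 54.2 and 84.5, and Rspo1 had 6.64 and 6.86.

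All 13 further transducers and destruction complex genes were detected, 5 lower and 2 higher, beside 15.4% and 22.1% of coding genes. Tnks2, a tankyrase that marks Axin for degradation, had 212 labeled and 708 unlabeled. Csnk1a1, the kinase that primes beta-catenin, had 184 and 499.9, and Csnk1d had 73.2 and 154. Tnks2 and Csnk1a1 were more than 2-fold lower relative to the median, and Csnk1d was so only in the values as deposited. Of 11 nuclear partners 10 were detected, 4 lower and 1 higher. The corepressors Tle4, with 79.7 and 262, and Tle3, with 56.4 and 196, were among the lower ones, and Tcf7, a further TCF factor, had 80.6 and 147. Of 12 targets 9 were detected, 3 lower and 3 higher; Nanog had 389 and 846, Esrrb had 93.9 and 244 and was more than 2-fold lower, and Ccnd1 had 97.5 and 211.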

How the data were processed

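Labeled and unlabeled RNA of WT mouse embryonic stem cells were each measured in 1 library. The authors aligned reads to exonic and intronic sequence with STAR 2.5.0 (mm10, GRCm38), used RSEM for quantification and deposited relative abundances of exons and introns per transcript. The deposited values, called TPM, are treated as a score, since each column sums to 10 times a TPM total; they hold no counts, so depth is unknown and no interval is given. The members and lists were chosen with earlier results of these data known. Coding transcripts and lengths came from GENCODE M21 (GRCm38). The lead transcript of a gene has the highest mean exon value. Genes needed a mean exon value above 1 and values above 0, with no pseudocount. Log2 exon ratios were taken relative to their median over 13697 genes. Rates followed Eqs. 10 to 17 of the study with 10 min of labeling. The solver was tested on noise-free data simulated from the model. All rates of 2146 transcripts above the line in the ratio plane and of 854 below it were among its solutions. Such data always have an exact solution, so the closest rates given to transcripts without one were not covered. No test was possible with 1 library in each pool. All members were named; of the wider list, up to 3 detected genes in each role with the highest mean exon value. Alternatives were other scalings, minimums, transcript units, a pseudocount of 0.1, subtracted carry-over and other solver choices. Other replicates were not analysed here. Scripts ran in Python 3.11.15, using pandas 2.3.3, numpy 2.4.6, matplotlib 3.10.9 for figures and scipy 1.17.1.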

Additional observations from a re-analysis of the deposited data

How the results depend on the processing

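The 8 summary results were recomputed under the alternatives listed for each of them, giving 60 values. Of these, 43 stayed within 1.5-fold of the reported one and 17 did not, and the cause was not tested. Some of the 43 could not have moved. No lead transcript of a member had 2 solutions, so the choice between solutions changed nothing. All member lead transcripts passed the minimum exon value, so dropping it left their ratios and rates as they were. The number of members more than 2-fold lower in labeled exon value was 4 with a mean exon value above 10. Subtracting carry-over put the labeled ratio of 24 of 39 member transcripts at 1 or above, beside 35.6% of coding transcripts under the same subtraction. These 24 were the incompatible ones, and the count is not separate from the low exon ratios. The median labeled ratio was then 1.11. The median degradation half-life was 12.5 min over the 4 lead transcripts that kept rates, Apc, Gsk3b, Ctnnb1 and Lef1. Lrp6, Axin2 and Tcf7l2 had no rate there, so this median and the reported one cover different genes. Summing the coding transcripts of each gene gave a median labeled ratio of 0.397, a median unlabeled ratio of 0.0478 and a half-life of 9.45 min. The median degradation half-life and processing half-time were 33.0 and 4.94 min over all coding transcripts, 4.61 and 1.73 min with the minimum over both variables, and 69.6 and 6.42 min with exact solutions only. The half-life was 87.8 min with the second library read as total RNA. The coding transcript with the largest exon length, an alternative chosen after seeing the data, gave 31.9 and 4.76 min. Unknown depth limits every ratio with a value under 1. No paired analysis was possible because each pool has 1 library and no result comes from a test.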

Other observations

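Member genes also have 38 transcripts of other biotypes in the table, 22 of them called retained intron, 10 processed transcript and 6 nonsense-mediated decay. Among these, Ctnnb1-208, called nonsense-mediated decay, had 343 labeled and 686 unlabeled, close to the full-length coding transcripts whose exons it shares. Some had the opposite order of the coding transcripts: Apc-208 had 43.97 labeled and 12.1 unlabeled, Lrp6-204 had 13.1 and 3.08, Lrp6-205 had 14.2 and 5.78, and Lrp6-206 had 68.5 and 34.2. These were picked after their values were seen. Lef1-206 had 47.4 labeled and 43.6 unlabeled, with introns 24.2 times higher in the labeled library.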
